A study of Mus musculus with 12 samples.

Results

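Very long autosomal genes are those that lie on chromosomes 1 to 19 and span 500000 bases or more in the length column of the count files. This rule uses no measured value. It found 187 of the 22556 genes in the files, of which 21630 are autosomal, and these 187 are called members below.

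Chromatin-associated RNA was sequenced from female mouse embryonic stem cells of the iXist-ChrX line, with strain background 129S X Cast, grown with LIF on inactivated feeder fibroblasts. By the methods of the study, feeders were removed by plating before chromatin RNA was taken. All lines carry a TetOn promoter in place of the endogenous promoter of Xist on the 129S allele, so that doxycycline (Dox) induces Xist from that allele. There were 12 libraries in 6 pairs, each pair made of 1 library without Dox (NoDox) and 1 after 24 h of Dox. WT had 1 pair and thus no replicate. XistDelA, named for a deletion of the A-repeat region of Xist, had 1 pair from each of 3 clones, C1, 2C2 and C11, and the data of C11 name the deleted stretch differently. XistDelm6A/T1_11C, called 11C here, is 1 line with 2 replicate pairs, so that line and genotype cannot be told apart, and its data are named by another scheme than those of the other lines. The methods speak of 2 biological replicates per experiment but do not say which libraries these are, and the labels name no separate cultures, so p-values measure the spread between these samples. Gene counts summed to between 18893447 and 36007145 per library (median 26552191), and in 6 of 6 pairs the Dox library was the deeper.

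Very long genes consist mostly of introns, and an RNA polymerase takes hours to cross the longest of them. Many encode adhesion molecules, ion channels and receptors of neurons, and several lie at common fragile sites, regions that tend to break when replication is slowed. As the assay enriches nascent RNA, most of the signal on such a gene is expected from its introns.

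The cell type label was checked with marker genes. Levels are given as CPM, the counts of a gene scaled by the effective size of the library. The 12 markers of embryonic stem cells summed to between 1831 and 2507 CPM in the 12 libraries, led by Zfp42, while Sox2 had 0 counts in all of them. The 12 feeder markers summed to between 37.1 and 81.6 CPM, led by Fbn1, and the 10 markers of differentiating cells to between 34.3 and 100.4 CPM, led by Otx2, with Sox1 at 0. A count of 0 need not mean that a gene was silent, as read pairs on a stretch shared by genes of 1 strand were not counted. Whether Sox2 and Sox1 lie on such a stretch was not checked. The 4 libraries of 11C had the lowest sums of feeder markers, 37.1 to 46.2 CPM, and the highest sums of markers of differentiating cells, 57.9 to 100.4 CPM. Of the latter, Gata4, Gata6 and Sox17 were each highest in 11C, as was Foxa2 at no more than 0.30 CPM. Otx2 had 32.8 to 59.3 CPM in 11C and 14.8 to 33.3 CPM in the other lines. Not all markers followed. Pax6 was lowest in 11C (1.51 to 2.00 CPM, against 3.455 to 8.11 in the other lines). Fgf5 was lowest in 11C replicate 2 (1.49 and 0.50 CPM), but highest of all libraries in 11C replicate 1 without Dox (10.1 CPM). The part of these differences in the results on very long genes was not tested. In bulk libraries, fewer cells of a type and less RNA per cell cannot be told apart.

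The members were from 501755 to 2270660 bases long (median 711500), and 42 of them had 1 Mb or more. Of the 187, 103 lie on the plus strand and 84 on the minus strand, and each autosome holds some, from 2 on chromosome 18 to 17 on chromosome 1. GENCODE M21 names 183 of them, 182 as protein coding, and the median share of exons in the span of these was 1.16%. The longest were Ptprd (2270660 bases), a receptor tyrosine phosphatase of synapses, Cntnap2 (2241312), a neurexin-like protein of axons, and Lrp1b (2056827), a lipoprotein receptor. Just inside the limit were Edil3 (501755), Car10 (502463) and Dock1 (502962), and just outside it Mir3470b (495030), Ank3 (493730) and Abca13 (492319). Mir8115, Mir669m-1 and Mir669e are named for microRNAs but are counted over spans far longer than a microRNA gene. Read pairs on a stretch shared by genes of 1 strand were not counted, which touches 4 members on more than 10% of their span, Schip1, Gm21949, Pcdha4-g and Mir8115. Schip1, which lies inside Gm21949, had 0 counts in every library.

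Between genes, levels are compared as CPM per kb of gene length. The median over the members was 0.0445 CPM per kb, against 0.181 over all autosomal genes, and 48 members (25.7%) lay above the autosomal median. Depth differed widely among them, with a mean of at least 10000 counts for 26 members, of at least 1000 for 89 and of under 50 for 16. The 10 members with the most counts held 44.7% of all member counts. By CPM per kb, the 10 highest were Exoc4 (3.93 CPM per kb), Rad51b (3.92), Ptprg (3.15), Large (2.78), Tenm4 (2.52), Etl4 (2.25), Immp2l (2.14), Ptprk (1.96), Magi1 (1.96) and Pard3 (1.91). Exoc4 encodes an exocyst subunit, Rad51b a protein of homologous recombination, Ptprg and Ptprk receptor tyrosine phosphatases, Large a glycosyltransferase of dystroglycan, and Tenm4 a teneurin, an adhesion protein. Immp2l encodes a peptidase of the inner mitochondrial membrane, Magi1 a scaffold of cell junctions and Pard3 a polarity protein. This order is by the mean over all libraries, and it differs between lines. Rad51b lay above Exoc4 in every library of 11C and below it in every other library. Etl4 had 3.03 to 4.26 CPM per kb in 11C, but 1.13 and 1.10 in C11. The longest members were far lower, with 0.0248 CPM per kb for Ptprd, 0.0125 for Cntnap2 and 0.0034 for Lrp1b. Length and CPM per kb had a Spearman correlation of -0.234 across the 187 members, a description over genes that share libraries and are not independent. The plot of level against length shows how uneven the levels are, with each of the 10 highest members shorter than 1 Mb.

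**Figure D1:**
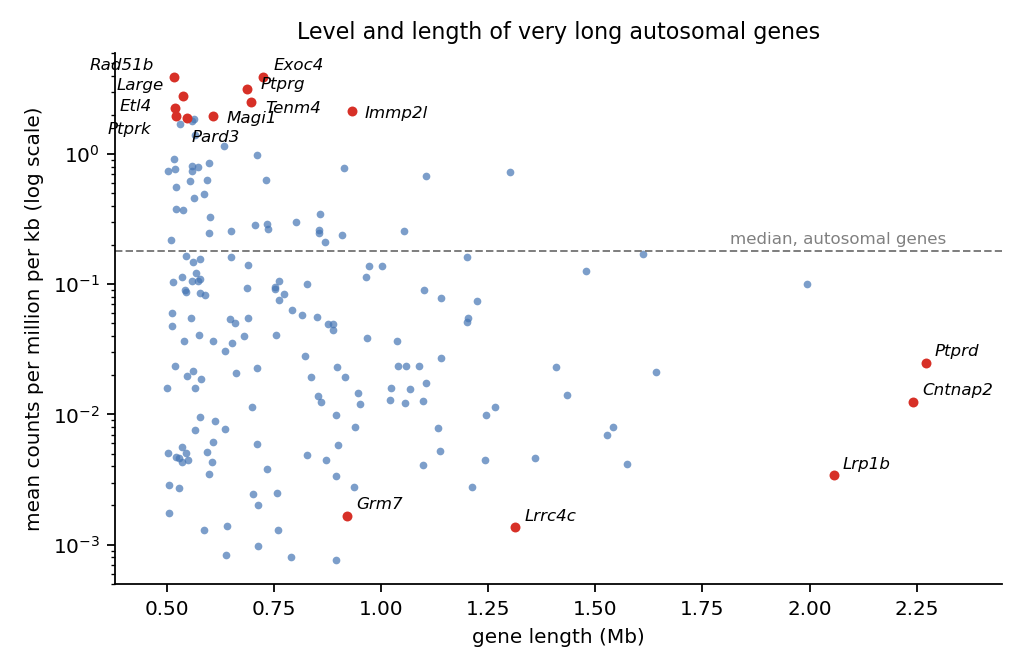
Mean CPM per kb over 12 libraries (log scale) against gene length in Mb for each very long autosomal gene with counts; red points are named genes and the dashed line is the median of autosomal genes. The 10 highest members are all shorter than 1 Mb, and the longest, Ptprd, lies at 0.0248 CPM per kb.

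Promoter windows of 300 bases, from 250 before to 50 after a start, were taken from RefSeq on GRCm38.p6, the assembly called mm10 in the files. For 139 members a window lay within 1000 bases of the start of the counted span. At least 10 CG were found in 71.9% of these windows and in 43.5% of all 32851 windows. The letters TATAAA, on either strand, were in 9.35% of the member windows and in 13.6% of all windows. The median number of CG was 28 in the 47 member windows with the highest CPM per kb, 19.5 in the next 46 and 9 in the 46 lowest, and the Spearman correlation of CG and CPM per kb over the 139 members was 0.402. The windows below are shown as single cases from both ends of the levels, with each CG in capitals, and they do not follow this order. They belong to the members with the most CPM per kb, Exoc4 (chr6:33248878-33249177, plus strand, 13 CG) and Rad51b (chr12:79297032-79297331, plus strand, 10 CG). Beside them stand the longest members with a window and a mean under 50 counts other than Schip1, Lrrc4c (chr2:96317919-96318218, plus strand, 6 CG) and Grm7 (chr6:110645348-110645647, plus strand, 15 CG). Lrrc4c, a synaptic adhesion protein, had 0.00136 CPM per kb, and Grm7, a glutamate receptor, 0.00166. None of these 4 windows held TATAAA. The Grm7 window held more CG than those of Exoc4 and Rad51b, and all 4 lay below the median of the highest members.
Exoc4: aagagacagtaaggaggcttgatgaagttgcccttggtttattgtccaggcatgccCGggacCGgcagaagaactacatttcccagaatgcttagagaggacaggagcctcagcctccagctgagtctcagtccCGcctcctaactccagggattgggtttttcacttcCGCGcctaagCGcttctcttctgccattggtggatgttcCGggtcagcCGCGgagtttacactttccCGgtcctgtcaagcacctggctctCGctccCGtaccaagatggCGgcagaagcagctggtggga
Rad51b: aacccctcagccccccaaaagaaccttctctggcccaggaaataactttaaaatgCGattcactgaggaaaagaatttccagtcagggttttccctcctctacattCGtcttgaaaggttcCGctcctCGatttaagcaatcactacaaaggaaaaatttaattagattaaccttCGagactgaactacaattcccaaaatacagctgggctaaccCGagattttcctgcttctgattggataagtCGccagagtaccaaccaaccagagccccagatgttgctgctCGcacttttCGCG
Lrrc4c: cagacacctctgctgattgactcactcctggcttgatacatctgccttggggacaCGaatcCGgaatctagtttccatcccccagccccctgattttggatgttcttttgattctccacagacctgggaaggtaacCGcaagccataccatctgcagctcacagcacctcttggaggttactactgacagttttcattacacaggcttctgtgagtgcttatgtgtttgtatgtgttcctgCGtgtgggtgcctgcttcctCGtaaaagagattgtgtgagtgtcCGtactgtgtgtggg
Grm7: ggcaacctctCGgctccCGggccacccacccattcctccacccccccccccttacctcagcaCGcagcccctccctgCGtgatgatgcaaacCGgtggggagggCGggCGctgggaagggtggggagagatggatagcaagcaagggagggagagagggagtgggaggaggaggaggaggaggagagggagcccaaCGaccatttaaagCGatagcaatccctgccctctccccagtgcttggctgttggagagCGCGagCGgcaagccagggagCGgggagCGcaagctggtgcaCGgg

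The share of all counts that fell on very long genes was computed for each library. In WT it was 3.34% without and 3.62% with Dox. Among the XistDelA clones it was 3.24% and 3.80% in C1, 2.97% and 3.60% in 2C2, and 3.18% and 3.56% in C11. In 11C it was 4.33% and 4.37% in replicate 1, and 4.31% (95% Wilson interval 4.30% to 4.32%) and 4.58% in replicate 2. The share was thus higher with Dox in 6 of 6 pairs, and every 11C library lay above every other library. Members with many counts weigh most in this sum. The median level over 171 members, as log2 from the mean of the lines, was lowest in 11C (-0.09), against 0.06 in WT, 0.05 in C1, -0.06 in 2C2 and 0.00 in C11. Over all autosomal genes the median in 11C was -0.025, also the lowest of the lines. Over genes of 250 to 500 kb it was 0.16 in 11C, the highest of the lines. Intervals of the shares cover counting error only. Of autosomal counts alone, the share in 11C replicate 1 was 4.6% without and 4.57% with Dox, so that it was higher with Dox in the other 5 pairs. These shares were not tested.

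The change of a gene in a pair is the log2 ratio of CPM with over without Dox, given for the 171 members with a mean of at least 50 counts. Their median change was 0.04 in WT, 0.13 in C1, 0.15 in 2C2 and 0.08 in C11. In 11C it was -0.21 in replicate 1 and 0.04 in replicate 2. More than 50% of these members were thus higher with Dox in each pair but 11C replicate 1, where 25.7% were. This depends on the scaling in 11C replicate 2, where the median was -0.05 with scaling by total counts (-0.06 over all autosomal genes). Among members of 1 Mb or more the medians of WT (-0.02) and of 11C replicate 2 (-0.05) were below 0 as well. With the scaling used here, the medians over all 11811 autosomal genes with as many counts lay between 0.00 and 0.03. Genes of 250 to 500 kb had medians of 0.04 in WT, 0.17 in C1, 0.18 in 2C2, 0.08 in C11, -0.09 in 11C replicate 1 and 0.11 in 11C replicate 2. Under 10 kb they were -0.05, -0.20, -0.12, -0.02, 0.07 and -0.19 in the same order. The medians of members were thus close to those of the class below 500 kb in WT and XistDelA, and lower in both 11C pairs, as the plot of the median change by length class shows. On chromosome X, the 11 genes of 500 kb or more had medians of -0.53 in WT, -0.09 in C1, -0.22 in 2C2, -0.21 in C11, and -0.87 and -0.54 in 11C.

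**Figure D2:**
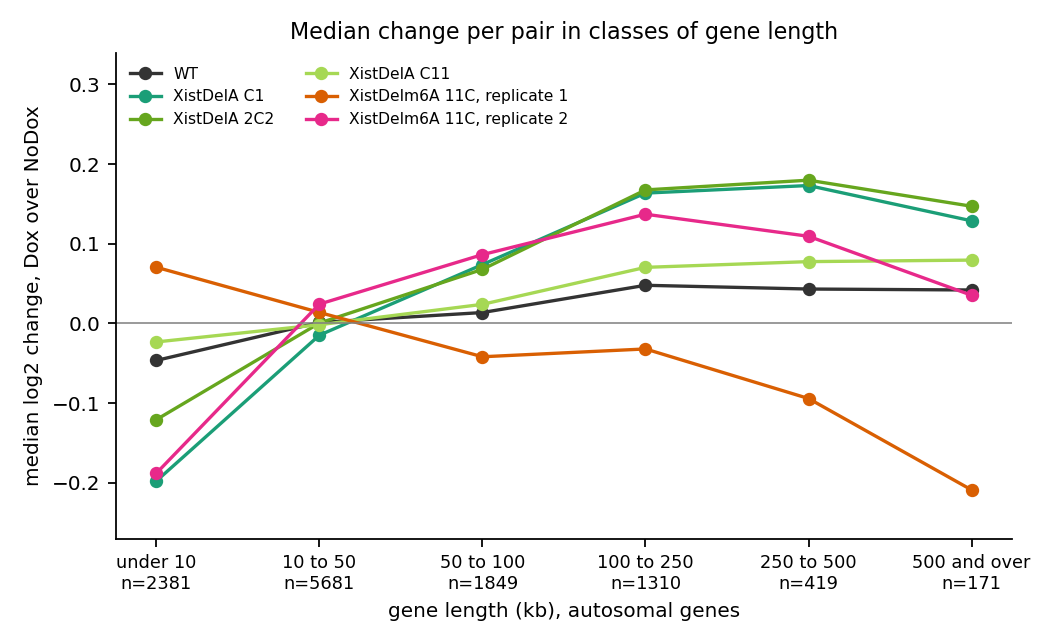
Median log2 change with Dox (vertical axis) of autosomal genes in 6 classes of gene length in kb (horizontal axis, with the number of genes), 1 line per pair. From 50 kb upward 11C replicate 1 lies below 0, down to -0.21 at 500 kb and over, where the other 5 pairs lie between 0.04 and 0.15.

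Members with more counts also had the higher changes. The 85 members with more counts per kb had medians of 0.10 in WT, 0.20 in C1, 0.22 in 2C2 and 0.16 in C11, and of -0.08 and 0.11 in 11C. The 86 members with fewer counts per kb had -0.02, 0.08, 0.06 and 0.03 in these 4 lines, and -0.34 and -0.11 in 11C. In 6 of 6 pairs, the members with more counts per kb thus had the higher median. Of the 171 members, 25 (14.6%, against 11.5% of all autosomal genes) were higher with Dox in 6 of 6 pairs and 12 (7.02%, against 8.2%) were lower in 6 of 6, shares near those over all autosomal genes.

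Kcnma1 (chr14:23298693-24004205), the calcium-activated BK potassium channel, was the 1 member called over the 6 pairs. Its CPM without and with Dox was 136 and 179 in WT, 155 and 208 in C1, 123 and 185 in 2C2, 134 and 178 in C11, 274 and 312 in 11C replicate 1, and 228.5 and 288 in 11C replicate 2. Every Dox library was above the NoDox library of its pair, and all 11C libraries were above all others. Whether a gene changed with Dox was tested with edgeR, with the line as a term, on 15826 genes with enough counts, among them 186 of the 187 members (all but Schip1). The log2 change of Kcnma1 was 0.39 (standard error 0.08, higher in 6 of 6 pairs, adjusted p = 0.0472). At an adjusted p under 0.05, 1 member was higher (0.366% of all genes tested were) and 0 were lower (0.562% of all genes were), while at an unadjusted p under 0.05 25 were higher (7.32% of all genes) and 12 lower (7.44% of all genes), and DESeq2 called 9 higher (1.5% of all genes) and 5 lower (2.43%). The 12 lower members, 6.45% of those tested, were thus near the share over all genes. Kcnma1 missed the threshold when the pair of WT, C1, 2C2 or C11 was left out (adjusted p of 0.221, 0.206, 0.224 and 0.175 from edgeR), with autosomal scaling factors (0.0539), with the size factors of DESeq2 (0.0507) and with genotype in place of the line (0.0840). Over all settings, among them the pairs as a block (log2 change 0.39, adjusted p = 2.91e-04), its adjusted p was from 7.53e-05 to 0.224.

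With the 6 pairs as a block, which gives each 11C replicate a baseline of its own, the largest rises among members were in Gm21949 (log2 change 0.49), Rora (0.41), Lpp (0.40), Grip1 (0.39), 1700112E06Rik (0.39), Kcnma1 (0.39), Nfia (0.39) and Dock1 (0.35). Rora (chr9:68653785-69388246), a nuclear receptor, had CPM without and with Dox of 181 and 225 in WT, 98.5 and 143 in C1, 152 and 230.5 in 2C2, 217 and 279 in C11, 209 and 252 in 11C replicate 1, and 244 and 310.1 in 11C replicate 2. It was higher with Dox in 6 of 6 pairs, by 0.27 to 0.60 on the log2 scale, and C1 had the lowest level in both states. With the block, its log2 change of 0.41 had an adjusted p of 1.99e-04 from edgeR, and over all settings the adjusted p was from 1.53e-04 to 0.404. Lpp encodes a LIM protein of focal adhesions, Grip1 a scaffold of glutamate receptors, Nfia a transcription factor and Dock1 an activator of Rac. The CPM of Lpp without and with Dox was 427 and 565 in WT, 390.1 and 552.5 in C1, 352 and 495 in 2C2, 378 and 515 in C11, 411 and 433 in 11C replicate 1, and 691 and 973 in 11C replicate 2. Lpp, Grip1, Dock1, Gm21949 and 1700112E06Rik were higher in 6 of 6 pairs, and Nfia in 5 of 6, with a log2 ratio of -0.23 in 11C replicate 1. Gm21949 rests on few counts (mean 71.0), and 98.9% of its span is shared with other genes.

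The largest falls with the block were in Tmem132d (-0.89), Kirrel3 (-0.64), Lrrc4c (-0.63), Robo2 (-0.51), Mgat4c (-0.47), Cntn4 (-0.45), Epha6 (-0.42) and Zfp804b (-0.36). Tmem132d (chr5:127783490-128433077), a membrane protein, had CPM without and with Dox of 189.7 and 100.3 in WT, 91.85 and 33.5 in C1, 119.8 and 57.8 in 2C2, 299 and 170.0 in C11, 95.1 and 59.5 in 11C replicate 1, and 25.5 and 20.7 in 11C replicate 2. It was lower with Dox in 6 of 6 pairs, with the smallest change in 11C replicate 2, where it was also lowest. With the block its log2 change was -0.89 (standard error 0.10, adjusted p = 2.87e-05 from edgeR), and over all settings its adjusted p was from 1.52e-05 to 0.518. Kirrel3, Lrrc4c and Cntn4 are adhesion proteins of neurons, Robo2 is a Slit receptor of axon guidance, Mgat4c a glycosyltransferase and Epha6 an ephrin receptor. The CPM of Cntn4 without and with Dox was 23.6 and 16.3 in WT, 15.8 and 13.01 in C1, 18.03 and 13.2 in 2C2, 22.8 and 17.99 in C11, 6.85 and 4.41 in 11C replicate 1, and 3.99 and 2.625 in 11C replicate 2. Cntn4, Kirrel3, Lrrc4c, Mgat4c, Epha6 and Zfp804b were lower in 6 of 6 pairs, and Robo2 in 5 of 6, with a log2 ratio of 0.12 in 2C2. Lrrc4c rests on few counts (mean 45.1). The plot of changes per pair shows these genes with the spread of the 6 pairs.

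**Figure D3:**
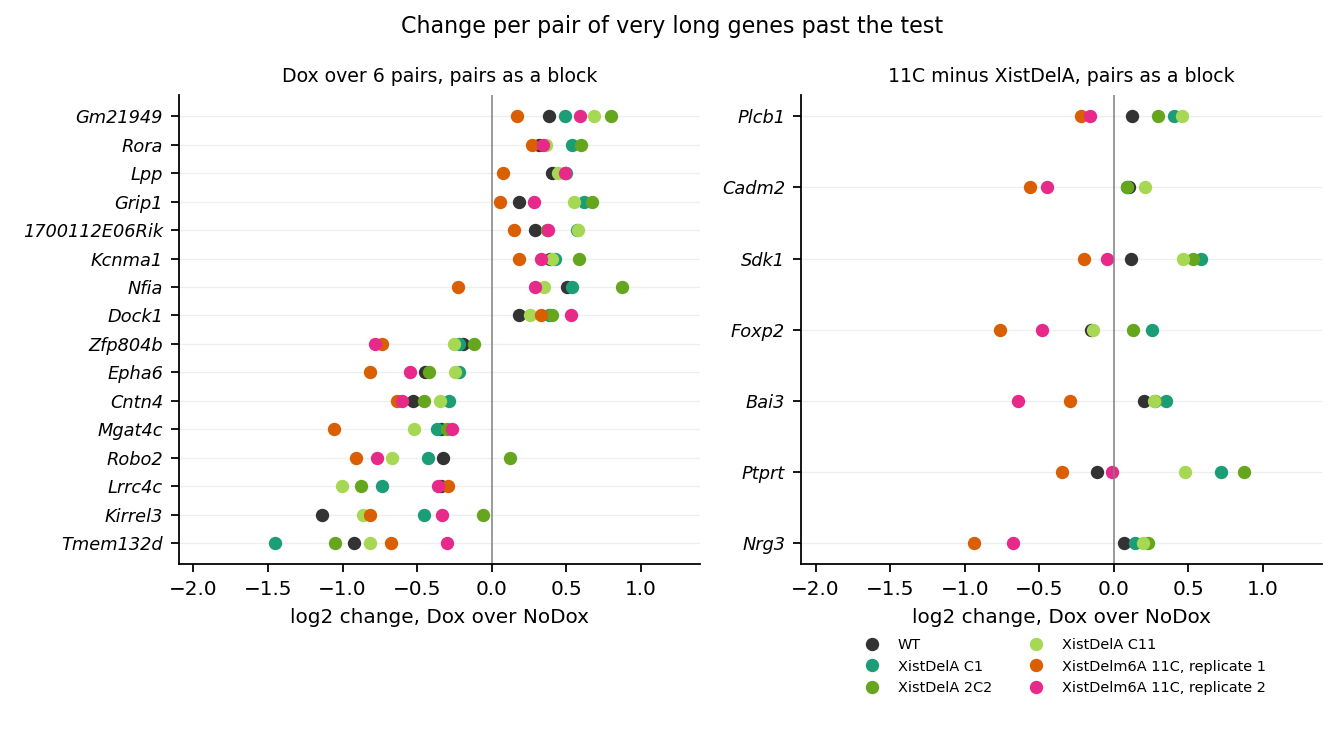
Log2 change with Dox over NoDox (horizontal axis) of named members (vertical axis), 1 point for each of the 6 pairs. On the left are the members with the largest rise and fall with pairs as a block, such as Tmem132d, below 0 in 6 of 6 pairs, and on the right the 7 members past the test of the difference between 11C and XistDelA, where both 11C pairs lie to the left of the 3 XistDelA pairs.

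In all, 33 members rose with the block (7.58% of all genes tested did, and 17.7% of members) and 16 fell (8.78% of all genes, 8.60% of members). Of genes of 250 to 500 kb 27.6% passed with the block, of very long genes 26.3%, and of genes under 10 kb 10.6%. These classes are autosomal, while the 8.78% of all genes that fell includes chromosome X. Among autosomal genes, 345 of 3806 under 10 kb and 530 of 7104 of 10 to 50 kb fell. So did 94 of 2147 of 50 to 100 kb and 69 of 1491 of 100 to 250 kb. At 250 to 500 kb, 33 of 468 fell. The median log2 change in that fit was 0.04 over the 186 members and 0.01 over all genes. The fits below that leave out a pair have the line as a term. Without 1 of the 11C replicates, each line holds 1 pair, so that the line is then also the pair. Without the pair of another line, the 11C replicates still share a baseline. These fits thus differ in form as well as in libraries, and no fit without the pair of another line kept the block. With the line as a term and without 11C replicate 1, 45 members were higher (9.32% of all genes) and 12 lower (9.35%), and without replicate 2 32 (8.32%) and 16 (10.7%). Without the pair of WT, C1, 2C2 or C11 0 were higher and 0 lower, where over all genes at most 0.0634% were higher and 0.0824% lower. Without all 11C libraries, a setting chosen after the data were seen that holds the other 4 pairs, 57 members were higher (12.5% of 15278 genes) and 15 lower (13.9% of genes).

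By role, counts with the block are to be read beside 7.58% of all genes that rose and 8.78% that fell. Of the 18 members at common fragile sites, 5 rose and 0 fell with the block, among them Immp2l (0.31), Rad51b (0.23), Ptprg (0.18) and Fhit (0.17), while Exoc4 was at 0.17 and missed the threshold. Their median log2 change was 0.17, as was that of the 26 genes of trafficking, the cytoskeleton and mitochondria, of which 8 rose, with Pard3 at 0.24, and 1 fell, Tmem132d. Of 49 adhesion and synapse genes, 6 rose and 6 fell (median 0.01). Magi1 (0.21) and Ptprg (0.18) were among those that rose, and there was no call for Tenm4 (-0.07) and Ptprk (0.01). Of 19 channels and receptors, 4 rose and 1 fell (median 0.04), with Kcnma1 (0.39) and Ryr2, a calcium release channel (0.20), among those that rose, Dpp6, a partner of potassium channels (-0.33), as the 1 that fell, and no call for Kcnq5 (0.04). Of 21 signalling and other enzymes, 3 rose and 4 fell (median -0.02). Dock1 (0.35) rose, and there was no call for Pde4d (0.12), Cdkal1 (0.08) and Hs6st3 (0.09). This list also holds enzymes that do not signal, such as Cdkal1, which modifies tRNA, and Hs6st3, an enzyme of heparan sulfate, and the list of trafficking genes holds Rad51b. Of 15 transcription and RNA binding factors, 3 rose and 0 fell (median 0.06), with Rora at 0.41 and no call for Auts2 (0.10), Zbtb20 (0.06) and Camta1 (0.03). The lists share members, and of all 186 members 33 rose and 16 fell.

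In XistDelA, Ptprt (chr2:161521987-162661147), a receptor tyrosine phosphatase, had the largest rise of the members with the block. Its CPM without and with Dox was 79.96 and 131.5 in C1, 48.3 and 88.45 in 2C2, and 62.1 and 86.5 in C11. In WT it was 83.6 and 77.25, and in 11C 115 and 90.7 in replicate 1 and 107 and 107 in replicate 2. The 3 XistDelA clones were higher with Dox, while WT and both replicates of 11C were not. The log2 change with the block was 0.69 (standard error 0.09, higher in 3 of 3 clones, adjusted p = 4.08e-04 from edgeR), and its adjusted p was from 1.36e-11 to 1 over all settings. After Ptprt came Thsd4 (0.62), Grip1 (0.62), Nfia (0.58), Sdk1 (0.53), Anks1b (0.52), Npas3 (0.51) and 1700112E06Rik (0.51), each higher in 3 of 3 clones. Sdk1 is an adhesion protein of synapses, and Npas3 a transcription factor. The members that fell were Tmem132d (-1.10), Lrrc4c (-0.87), Kirrel3 (-0.46) and Cntn4 (-0.36), each lower in 3 of 3 clones.

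With the pairs as a block, 38 members rose in XistDelA (5.66% of all genes tested did, 20.4% of members) and 4 fell (5.57% of all genes, 2.15% of members). With the line as a term, which also gives each clone a baseline of its own but joins the 11C replicates, edgeR called 0 higher (0.019% of all genes) and 0 lower (0% of genes), with 22 (4.21% of all genes) and 1 (3.41%) at an unadjusted p under 0.05 and 2 (0.0885%) and 0 (0.145%) by DESeq2. Of genes of 250 to 500 kb 25.2% passed with the block, and of very long genes 22.6%. The median over members was 0.12, against 0.01 over all genes. Of the fragile site genes 6 of 18 rose, of the adhesion genes 9 of 49 rose and 3 fell, and of the trafficking genes 10 of 26 rose and 1 fell. Without 11C replicate 1, 66 members were higher (13.5% of all genes) and 15 lower (14.1%), and without replicate 2 64 (13.6%) and 16 (14.6%). The libraries left out are not of this genotype. In these fits each line holds 1 pair, so that the line is also the pair. They thus differ in form from the fit with the line as a term on all libraries, and are to be read beside the block. Without all 11C libraries 66 were higher (13.8% of 15278 genes) and 16 lower (14.6% of genes).

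In 11C, Nrxn3 (-0.97), a presynaptic adhesion protein, Robo2 (-0.84), Nrg3 (-0.83), Zfp804b (-0.76), Epha6 (-0.70), Dpp6 (-0.64), Foxp2 (-0.63) and Cntn4 (-0.62) had the largest falls with the block, each lower in both pairs. The CPM of Nrxn3 without and with Dox was 20.8 and 9.11 in replicate 1 and 10.1 and 6.46 in replicate 2. Both Dox libraries were thus below both NoDox libraries. The CPM of Dpp6 was 380.3 and 253.5 in replicate 1 and 198.5 and 122 in replicate 2, and here the Dox library of replicate 1 was above the NoDox library of replicate 2. Dock1 was the 1 member that rose (0.43), with CPM of 413 and 519 in replicate 1 and 476 and 688 in replicate 2, where both Dox libraries were above both NoDox libraries. Dock1 was also higher with Dox in the other 4 pairs.

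With the block, 21 members fell in 11C (2.63% of all genes tested did, 11.3% of members) and 1 rose (0.752% of all genes, 0.538% of members). With the line as a term edgeR called 0 higher (0.0126% of all genes) and 0 lower (0% of genes), with 1 (1.1% of all genes) and 9 (2.58%) at an unadjusted p under 0.05, and DESeq2 called 0 (0.0505%) and 0 (0.209%). With the block, 11.8% of very long genes passed, against 5.34% of genes of 250 to 500 kb and 1.18% of genes under 10 kb. These classes are autosomal, while the 2.63% of all genes that fell includes chromosome X. Among autosomal genes, 36 of 3806 under 10 kb and 48 of 7104 of 10 to 50 kb fell. So did 19 of 2147 of 50 to 100 kb and 22 of 1491 of 100 to 250 kb. At 250 to 500 kb, 20 of 468 fell. Of the 49 adhesion genes 10 fell and 0 rose, of the 21 signalling enzymes 4 fell and 1 rose, and of the 18 fragile site genes 2 fell and 0 rose. The median over members was -0.09, against 0.00 over all genes. The sums of markers of differentiating cells and of feeders were lower with Dox in both 11C pairs as well. Those of differentiating cells were 100.4 and 80.98 CPM without and with Dox in replicate 1 and 67.6 and 57.9 CPM in replicate 2, and those of feeders 46.2 and 40.5 CPM, and 40.4 and 37.1 CPM. Both sums were also lower with Dox in WT, C1 and C11, but not in 2C2, and their part in the falls of members was not tested. The counts moved with the replicate, since without replicate 1 12 were lower (4.82% of all genes) and 21 higher (3.7%), and without replicate 2 49 were lower (9.96%) and 3 higher (5.5%), in fits where the remaining pair is taken to vary like the other groups.

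The response to Dox differed between 11C and XistDelA in 7 members when the pairs were a block. Nrg3 (chr14:38368950-39473088), a ligand of the ErbB4 receptor, had CPM without and with Dox of 27.7 and 30.5 in C1, 20.6 and 24.2 in 2C2, and 21.0 and 24.1 in C11. In 11C it was 17.9 and 9.325 in replicate 1 and 9.04 and 5.65 in replicate 2, and in WT 20.2 and 21.3. The 3 XistDelA pairs were higher with Dox and both 11C pairs lower. The log2 difference, 11C minus XistDelA, was -1.02 (standard error 0.16, adjusted p = 0.00691 from edgeR), and its adjusted p was from 3.49e-06 to 1 over all settings. The other 6 were Ptprt (-0.87), Bai3 (-0.76), Foxp2 (-0.73), Sdk1 (-0.65), Cadm2 (-0.64) and Plcb1 (-0.58). Bai3, Cadm2 and Sdk1 are adhesion proteins, Foxp2 is a transcription factor and Plcb1 a phospholipase of G protein signalling. The CPM of Bai3 without and with Dox was 89.1 and 114 in C1, 63.2 and 76.4 in 2C2, and 45.3 and 54.5 in C11, and in 11C 128.5 and 105 in replicate 1 and 100.3 and 64.3 in replicate 2. All of these but Foxp2, which was lower with Dox in C11 too (-0.14), were higher in 3 of 3 XistDelA pairs and lower in both 11C pairs. Among the 171 members with enough counts 21 (12.3%, against 3.92% of all autosomal genes) had this pattern and 1 (0.585%, against 3.34%) had the opposite one, a description with no test.

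With the block, 7 members had a lower response in 11C (0.569% of all genes tested did, 3.76% of members) and 0 a higher one (0.177% of all genes), with 55 lower (7.4% of all genes) and 2 higher (5% of all genes) at an unadjusted p under 0.05. With the line as a term edgeR called 0 lower (0% of genes) and 0 higher (0% of genes), with 13 (1.51% of all genes) and 0 (0.714%) at an unadjusted p under 0.05, and DESeq2 called 0 (0% of all genes) and 0 (0.00632%). The 0.569% of all genes with a lower response includes chromosome X. Among autosomal genes with the block, 0 of 3806 under 10 kb and 5 of 7104 of 10 to 50 kb were lower. So were 6 of 2147 of 50 to 100 kb and 6 of 1491 of 100 to 250 kb. At 250 to 500 kb, 6 of 468 were lower. The median difference was -0.24 over members with the block, -0.13 over genes of 250 to 500 kb and -0.01 over all genes. Of the adhesion genes 4 of 49 had a lower response in 11C, of the signalling enzymes 2 of 21, and of the transcription factors 1 of 15. Without 11C replicate 1, 23 members were lower (3.09% of all genes) and 4 higher (4.28%), and without replicate 2 61 (6.8%) and 1 (3.42%).

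Between the 5 lines, Pkhd1 (chr1:20057778-20618057), the fibrocystin gene of cilia, had the smallest p, with CPM without and with Dox of 103.5 and 109 in WT, 25.7 and 30.65 in C1, 76.5 and 83.7 in 2C2, 94.25 and 101 in C11, 22.0 and 20.9 in 11C replicate 1, and 23.8 and 24.4 in 11C replicate 2. It was low in C1 and 11C, whose 6 libraries all lay below the other 6, and its line means spanned a 4.66-fold range (adjusted p = 3.18e-06 from edgeR). Wwox, an oxidoreductase gene at a fragile site, had line means of 476 CPM in WT, 485 in C1, 434 in 2C2, 533 in C11 and 1161 in 11C. It stood apart in 11C (2.68-fold range, adjusted p = 7.56e-05 from edgeR, and 0.157 for the other 4 lines without 11C). Over all settings the adjusted p was from 8.94e-107 to 0.00295 for Pkhd1 and from 1.04e-33 to 0.157 for Wwox. Fhit, a hydrolase gene at another fragile site, had line means of 210.4 CPM in WT, 296 in C1, 151 in 2C2, 219 in C11 and 381 in 11C. All 4 libraries of 11C were thus the highest for Wwox and Fhit.

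The receptor tyrosine kinase gene Alk had line means of 111 CPM in WT, 203 in C1, 121.5 in 2C2, 82.1 in C11 and 323 in 11C. The ion channel gene Asic2 had 11.9, 15.2, 6.74, 18.5 and 51.1 CPM in the same order, a 7.59-fold range. Alk and Asic2 were highest in the 4 libraries of 11C. The ephrin receptor gene Epha6 had 15.3, 10.9, 13.2, 19.5 and 4.85 CPM. The channel gene Trpm3 had 61.9, 54.8, 51.9, 62.9 and 28.3 CPM, and Galnt13, an enzyme of O-glycosylation, 35.7, 29.3, 33.2, 36.2 and 15.1 CPM. These 3 genes were lowest in the 4 libraries of 11C, as the plot of CPM per library shows.

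**Figure D4:**
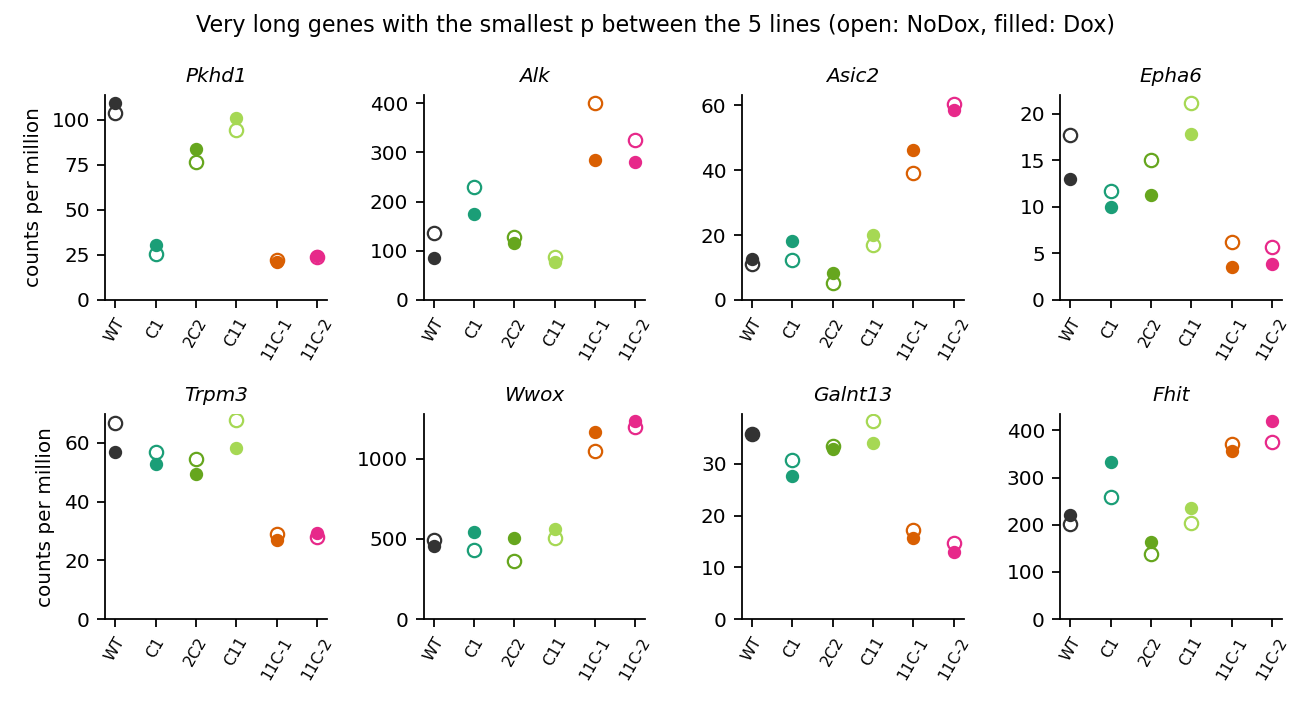
CPM (vertical axis) in each library, by line (horizontal axis), for the 8 very long genes with the smallest p between the 5 lines, with open points for NoDox and filled points for Dox; 11C-1 and 11C-2 are the replicates of 11C. Wwox lies at 1161 CPM on average in 11C and at 434 to 533 in the other lines, while Pkhd1 is low in both C1 and 11C.

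In all, 100 of 186 members differed between the 5 lines (35.2% of all genes tested did, 53.8% of members) in the edgeR test of the line terms. Among these 100, 11C had the highest mean in 40 (49.7% of all 5568 genes called) and the lowest in 51 (41.6%), and its 4 libraries lay above all others in 24 (32.7%) and below all others in 39 (31.9%). That 11C was often at an end thus held for all genes called between lines. C11 was highest in 24 (15.2% of all genes called) and lowest in 16 (20.4%), and 2C2 highest in 6 (17% of all genes called) and lowest in 23 (21.5%). Without the 11C libraries, 120 members differed between the other 4 lines (32.4% of 15278 genes, 64.5% of members). The share of genes called was 26.0% under 10 kb, 50.4% at 250 to 500 kb and 53.8% at 500 kb and over. By list, 15 of 21 signalling enzymes, 13 of 19 channels and receptors, 8 of 15 transcription factors, 13 of 26 trafficking genes, 22 of 49 adhesion genes and 8 of 18 fragile site genes differed. Without 11C replicate 1 156 members differed (62.6% of all genes), without replicate 2 155 (65% of all genes), and with a Dox term for each genotype 37 (8.04% of all genes), so the calls over all genes moved as well. Each line gave 2 libraries and 11C 4, so the p says nothing about other clones. The labels do not say when libraries were prepared, and for 11C, line and library preparation cannot be told apart.

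The 7 members on chromosome 11 had medians of 0.28 in C1 and 0.62 in 11C on the log2 scale relative to the mean of the lines, against -0.14 in WT, -0.46 in 2C2 and -0.24 in C11. All 987 genes of chromosome 11 with enough counts had medians of 0.22 in C1, 0.21 in 11C, -0.05 in WT, -0.21 in 2C2 and -0.18 in C11. The 129S genome held 69.3% of the allelic counts of chromosome 11 in C1 and 68.8% in 11C, against 55.3% in WT, 48.7% in 2C2 and 52.6% in C11. C1 and 11C were thus high in each of these medians and shares. Single members did not all have the sign of the chromosome. Asic2 lay at -0.11 in C1 and 0.20 in C11, 5730522E02Rik at -0.09 in 11C and 0.06 in WT, and Car10 at 0.21 and Tenm2 at 0.07 in WT. The part of the chromosome in the line differences of the 7 members was not tested. Other chromosomes also had a line whose allelic share stood apart. On chromosome 16, which holds Epha6, 129S held 43.8% in 11C and 51.9% to 52.3% in the other lines. On chromosome 6 it held 48.4% in C11 and 52.3% to 53.5% in the other lines. The part of these shares in the line differences of members was not tested either.

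Counts assigned to a parental genome were at least 100 in every library for 119 members. The median share of 129S over these members was between 50.2% and 52.8% in the 12 libraries, and between 51.5% and 52.5% over 7016 autosomal genes. In 41 members the share lay between 40% and 60% in all libraries. It was above 80% in all libraries for 2 members, Csmd1 and Sgcz, and below 20% in all for 3, Alk, Pcdha4-g and Agbl1, together 4.2% of members against 0.770% of autosomal genes. Alk ranged from 7.04% to 18.8% (median 13.1%), so that most of its allelic counts came from the Cast genome in every line. Csmd1, a membrane protein with complement control domains, ranged from 80.4% to 95.9%. Slit3, a ligand of axon guidance on chromosome 11, had 76.3% and 78.3% in C1 and 80.7% to 85.1% in 11C, against 56.4% to 64.1% in the other lines. Nckap5 had 88.0% to 96.3% in WT, 2C2 and C11, but 60.8% to 84.2% in C1 and 11C, and thus went the other way. The widest 95% interval of these shares reached 9.39 points to either side, and the shares were not tested. The plot of allelic shares shows 12 members with a skewed or line-dependent share.

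**Figure D5:**
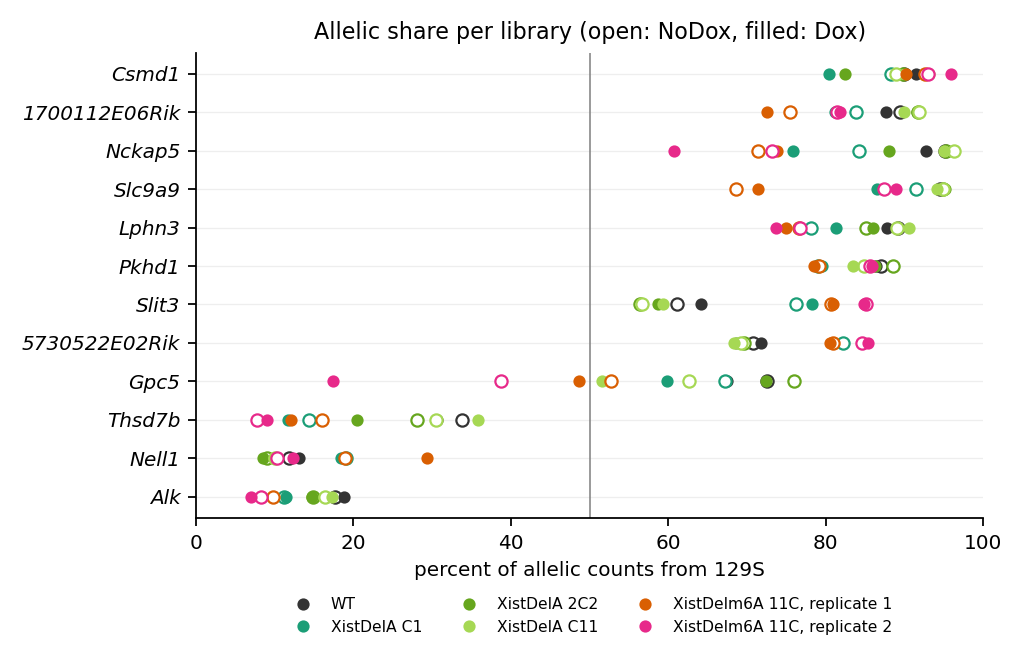
Percent of allelic counts from the 129S genome (horizontal axis) in each library for 12 members (vertical axis) with a skewed or line-dependent share, with open points for NoDox and filled points for Dox. Alk lies between 7.04% and 18.8% in all libraries, and Slit3 separates C1 and 11C from the other lines.

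Genes of the machinery that carries polymerases through long genes were looked at beside the members, in a list of elongation factors and topoisomerases. Of 48 tested, 2 rose (7.58% of all genes did) and 8 fell (8.78% of all genes) with Dox with the pairs as a block, and edgeR called 0 higher and 0 lower with the line as a term. Those that rose were Mllt3 (0.28) and Aff1 (0.24), and the largest falls were in Aff4 (-0.38), a scaffold of the super elongation complex, Cdk9 (-0.37), the kinase of P-TEFb, and Hexim1 (-0.33), its inhibitor. The median of the 48 was -0.05. Between the 5 lines 21 of the 48 differed, where 35.2% of all genes did.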

How the data were processed

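Chromatin-associated RNA of 12 libraries was used. The authors mapped reads to mm10 with Bowtie2 2.3.2 and STAR 2.4.2a and counted read pairs per gene span, by strand and with introns, with featureCounts 1.5.2. The values they deposited are raw counts, over all read pairs (column 7) and per parental genome, and the genome that holds the Xist counts was read as 129S. Libraries held 18893447 to 36007145 counts.

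Tests were edgeR 4.0.16 quasi-likelihood fits on all genes (TMM, filterByExpr with minimum count 10, Benjamini-Hochberg over all genes, threshold 0.05) in R 4.3.3, with DESeq2 1.42.0 as an alternative. Other values came from Python 3.11.15 with pandas 2.3.3 and scipy 1.17.1, with a pseudocount of 0.5. Pairs were read from clone names and replicate numbers. In C1, 2C2, C11 and 11C, the residuals of paired libraries correlated across genes with r of at least 0.4035. As this is above the limit of 0.1, blocked values are given. The 11C replicates share a single value (0.7085), and there was none for WT. Some of the fits were tested on simulated data, which held no differences between lines or pairs. There the edgeR fits tested had a share of false calls near the threshold. DESeq2 made clearly more false calls than its threshold allows, so its counts are given only beside those of edgeR. The blocked fits for XistDelA, for 11C and for the difference between them were not simulated. Their share of false calls is thus not known, and the simulation does not cover libraries that correlate within pairs.

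Named were the longest members and those around the limit, the 10 with the highest CPM per kb, up to 8 with the highest and up to 8 with the lowest change past the test over 6 pairs, the 8 with the smallest p between lines, those past the test between genotypes (up to 6, but all 7 are given) and up to 4 of each list by counts. As only 1 member passed over 6 pairs, the same order was applied to the blocked fits and to each genotype after their values were seen. The allelic and elongation examples, Fhit among the fragile site genes, and promoter windows with a mean under 50 in place of under 10 counts were also chosen after seeing values. Members and lists were chosen with earlier results of these data known. Genes on chromosome X are not members and were shown as a group in 1 comparison, and Schip1, with 0 counts, could not be tested. Shares of all genes tested include chromosome X, while shares of autosomal genes and of length classes do not.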

Additional observations from a re-analysis of the deposited data

Results flagged for a closer look

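The response to Dox differed between 11C and XistDelA in 7 very long genes when the pairs were a block, by the test of the difference itself. All 7 were lower in 11C (3.76% of members, against 0.569% of all genes, chromosome X included). Among shorter autosomal genes, the calls ranged from 0 of 3806 under 10 kb to 6 of 468 at 250 to 500 kb. The log2 difference, 11C minus XistDelA, was -1.02 for Nrg3, -0.87 for Ptprt, -0.76 for Bai3, -0.73 for Foxp2, -0.65 for Sdk1, -0.64 for Cadm2 and -0.58 for Plcb1. With the line as a term, 0 of them passed in edgeR, where 13 very long genes (6.99%, against 1.51% of all genes) had a lower response in 11C at an unadjusted p under 0.05, and DESeq2 called 0. Hs6st3, an enzyme of heparan sulfate, was higher with Dox in all 3 XistDelA pairs and lower in both 11C pairs, with a difference of means of -0.31. That pattern was not tested; the difference itself missed the threshold in the fits above. As 11C is 1 line, line and genotype cannot be told apart.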

How the results depend on the processing

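The number of very long genes called depends on how the pairs enter the fit and on the 11C libraries; the cause was not tested. Of the main results 120 values under alternatives were the same and 52 moved. Of the values for single named genes and for the number of members with enough allelic counts, 509 were the same, 179 newly passed the threshold and 8 no longer did. For a gene, the same means the same side of the threshold, so a gene that missed it in both fits counts as the same. Among genes named for a response to Dox, only Kcnma1 passed in the fits with the line as a term on all libraries. The 598 values for named genes under alternatives included 0 of the opposite sign. These genes were chosen for passing a fit on the same libraries, most of them with the block. The agreement in sign was thus largely set by the choice and does not measure how stable the changes are. With the replicate block, 33 members were higher (7.58% of all genes) and 16 lower (8.78%) over 6 pairs, and 38 (5.66%) and 4 (5.57%) in XistDelA. In 11C 1 was higher (0.752% of all genes) and 21 were lower (2.63%). In the difference between 11C and XistDelA 7 were lower (0.569% of all genes). With genotype in place of the line 0 were higher over 6 pairs (0.183% of all genes), and with the size factors of DESeq2 0 (0.322%). With TMM factors from autosomal genes 0 were higher (0.329% of all genes) and with no count filter 2 (0.3%). DESeq2 called 9 higher (1.5% of all genes) and 5 lower (2.43%) over 6 pairs, and 2 higher in XistDelA (0.0885%). In fits on a genotype alone with the block, 68 were higher (14.8% of all genes) and 15 lower (14.9%) in XistDelA and 6 lower (1.34%) in 11C. Without the 11C libraries, which was chosen after the data were seen, 57 were higher (12.5% of all genes) and 15 lower (13.9%) over the other 4 pairs. In XistDelA 66 were then higher (13.8% of all genes) and 16 lower (14.6%). With a Dox term for each genotype 37 differed between lines (8.04% of all genes). The fits that leave out 1 pair have the line as a term and differ in form. Once 1 of the 11C replicates is left out, the line is also the pair, and otherwise the 11C replicates share a baseline. Their ranges thus do not show how the counts with the block depend on a pair. Leaving out 1 pair at a time gave from 0 to 45 higher and from 0 to 16 lower over 6 pairs, from 83 to 156 between lines, from 0 to 66 higher and from 0 to 16 lower in XistDelA, from 0 to 21 higher and from 0 to 49 lower in 11C, and from 0 to 4 higher and from 0 to 61 lower in the difference. The median change of very long genes in WT was -0.0244 at 1 Mb or more and 0.0772 with scaling by total counts, where that of 2C2 was 0.21. That of 11C replicate 2, 0.04, turned to -0.05 with total counts and at 1 Mb or more. The median share of counts was 3.84% of autosomal counts, 10.97% at 250 kb or more, 0.395% at 1 Mb or more and 2.57% without the 5 members with the most counts. The median allelic share was 51.3% at 300 or more allelic counts. Depth limits the 16 members with a mean under 50 counts.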
